A study of Mus musculus with 12 samples.

Results

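The genes described here are 10 genes of the neuronal cytoskeleton and growth cone, chosen by symbol from the 55809 genes of the count tables. They are the neurofilament genes Nefl, Nefm and Nefh, the microtubule genes Tubb3 and Map2, the stathmin genes Stmn2 and Stmn3, the growth cone gene Gap43, and the neuronal protein genes Uchl1 and Thy1. All 10 were listed in both tables and passed the filter on low counts in both comparisons. Neurofilaments are the intermediate filaments of axons and are built from light, medium and heavy chains. Microtubules run through axons and dendrites, and stathmins bind free tubulin and favour microtubule disassembly. GAP43 is a membrane protein of growing and regenerating axon tips, and its gene stays active in some mature neurons, including hypothalamic ones.

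The libraries were made from sorted mouse cells in 4 groups of 3. Groups 1 and 2 held TOM positive and TOM negative cells of the hypothalamus of untreated Mc4r-Cre; Ai14 mice aged 4 weeks. Ai14 is a reporter allele that makes the red protein tdTomato (TOM) in any cell in which Cre has been active, and Mc4r encodes the melanocortin 4 receptor, so TOM marks cells with present or past Cre activity from the Mc4r locus. Groups 3 and 4 were cells of the hypothalamic paraventricular nucleus (PVH) from mice of the genotype Otp fl/fl; Ai14 at an age of 26 weeks. These mice had received an adeno-associated virus, AAV-Cre or AAV-GFP, 12 weeks earlier. AAV-Cre deletes the floxed Otp gene, and its cells were sorted by TOM, whereas AAV-GFP leaves the gene intact, and its cells were sorted by GFP. All of these mice carry Ai14, and both AAV groups carry the floxed Otp alleles. The labels name no promoter for either virus. The AAV groups therefore differ in the virus, in the state of Otp and in the protein used for the sort, which cannot be told apart. Whether the 3 libraries of each group stem from different mice is not stated in the labels, so p-values measure no more than the spread between libraries, which may be technical.

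Library totals ran from 13506018 to 27827853 counts. No molecular identifiers are described, so counts include PCR copies and bounds from counts cover counting error only. Counts of Mc4r were 63, 0 and 0 among TOM positive replicates 1 to 3, with 0 in each TOM negative library, so 2 of the 3 libraries labelled TOM positive held no count of the gene that drives their Cre. Otp had 12, 9 and 10 counts after AAV-Cre against 91, 102 and 38 after AAV-GFP (edgeR adjusted p = 0.134), and no label names the floxed exons. The sorted cells were not neurons alone. Summed over fixed lists, 18 pan-neuronal markers reached 749 to 847 CPM (the usual depth-scaled counts, here on TMM-scaled library totals) in TOM positive and 212 to 252 in TOM negative libraries, while 10 oligodendrocyte markers reached 82100 to 92800 and 19900 to 26300. Microglial markers reached 358 to 858 CPM in TOM positive libraries against 21700 to 25500, and astrocyte markers 9810 to 13400 against 19300 to 20300. Of the 8 astrocyte markers only 2 passed as lower (edgeR adjusted p under 0.05) and 6 did not pass. Among the 8, 2 had a positive log2 fold change, and the median was -0.179. In such bulk samples, fewer cells of a type and less RNA per cell cannot be told apart.

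RefSeq start regions were at hand for 4 of the 10 genes, Map2 and Uchl1, which rose in TOM positive cells, and Tubb3 and Stmn3, which did not pass the test. They are shown to let the upstream sequence be read beside those values. Each is the 100 bases before the earliest annotated start, 5′ to 3′ on the gene's strand, in RefSeq build GRCm38.p6, with any match to a searched motif in capitals. They lie at chr1:66175102-66175201 (Map2, plus strand), chr5:66675991-66676090 (Uchl1, plus), chr8:123411324-123411423 (Tubb3, plus) and chr2:181314501-181314600 (Stmn3, minus).
Map2: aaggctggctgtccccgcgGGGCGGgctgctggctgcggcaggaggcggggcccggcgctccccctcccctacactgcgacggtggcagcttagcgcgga
Uchl1: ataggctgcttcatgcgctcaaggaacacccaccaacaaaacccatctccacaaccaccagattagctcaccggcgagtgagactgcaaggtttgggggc
Tubb3: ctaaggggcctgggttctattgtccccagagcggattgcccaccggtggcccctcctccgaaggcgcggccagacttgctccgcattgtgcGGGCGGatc
Stmn3: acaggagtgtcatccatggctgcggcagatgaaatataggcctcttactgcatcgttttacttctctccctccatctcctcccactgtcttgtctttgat
The motif GGGCGG, searched on both strands, occurs in 24.7% of 32851 windows of this length, each taken before its own RefSeq start. The windows of the 4 genes were instead placed before the earliest annotated start, so their position can differ from that of these windows. Likewise the motif CCAAT occurs in 18.9% of them, and the motif TATAA in 10.2%. None of the 3 motifs overlapped another here. GGGCGG was found once in Map2, 81 bases before the start, and once in Tubb3, 9 bases before it, and no other match was found in the 4 windows. GC content was 77% in Map2, 67% in Tubb3, 55% in Uchl1 and 48% in Stmn3, against a median of 55% over all windows. The 2 genes that rose thus shared neither the motif nor the base composition in these windows.

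The first comparison asked which genes set TOM positive hypothalamic cells apart from TOM negative ones. Of the 10 genes, 4 were higher in TOM positive cells (Nefl, Gap43, Map2 and Uchl1, by 2.62-fold to 10.5-fold), none was lower, and 6 did not pass the test (edgeR quasi-likelihood test, adjusted p under 0.05 over all genes tested). Of all 15228 genes tested, 23.9% passed, 10.4% being higher and 13.4% lower. The log2 fold change was positive for 9 genes and negative for Thy1, with a median of 1.86 against -0.024 over all genes tested. The libraries of the 2 groups did not overlap for 6 genes, 5 higher and 1 lower, where 46.4% of all genes tested did not overlap (20.8% higher and 25.6% lower). At an unadjusted p under 0.05 there were 5 of the 10, where 36.4% of all genes tested were. Pan-neuronal markers moved the same way, since 11 of the 17 tested were higher and none lower, with a median log2 fold change of 2.34. The part of neuronal content in these calls was not tested, and ratios to these markers are given further on as a description.

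**Figure D1:**
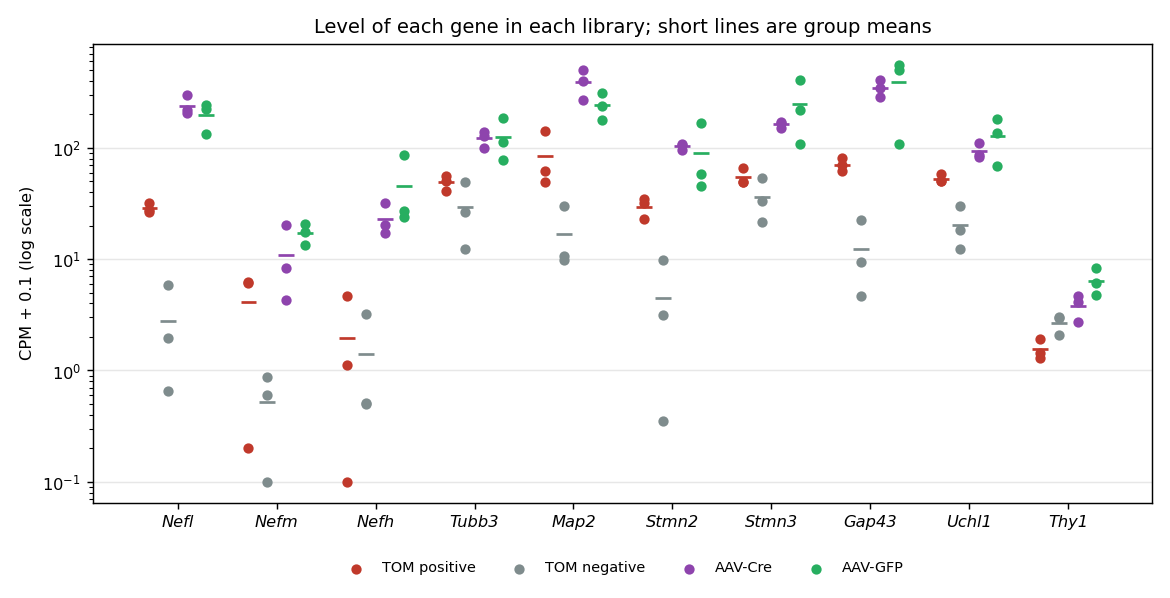
Level of each of the 10 genes in each library, as CPM + 0.1 on a log axis, with short lines at the group means of 3 libraries. The TOM positive points lie above all TOM negative points for Nefl, Map2, Stmn2, Gap43 and Uchl1, and below them for Thy1, while the Cre and GFP points overlap for every gene but Thy1.

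Nefl encodes the light chain, the core on which neurofilaments assemble. Its level was 27.8, 26.3 and 32.0 CPM in TOM positive replicates 1, 2 and 3 and 0.553, 1.84 and 5.73 CPM in the TOM negative ones. The groups lay far apart, and the TOM negative libraries spread over 10.4-fold while the TOM positive ones spread over 1.22-fold. This is a 10.5-fold difference, or 3.40 ± 0.80 (SE) on the log2 scale, and it passed (edgeR adjusted p = 0.0213). The call was lost without TOM positive replicate 1 (adjusted p = 0.0508), TOM positive replicate 3 (0.0531) or TOM negative replicate 2 (0.0939), and the log2 fold change ran from 2.91 to 4.55 with 1 library left out, the highest without TOM negative replicate 3.

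Nefm, the medium chain, had 119, 3 and 180 counts in TOM positive libraries and 10, 16 and 0 in TOM negative ones. TOM positive replicate 2 stood at the level of the TOM negative libraries although it had 771 counts of Nefl. The log2 fold change of Nefm was 3.24 ± 1.77 and did not pass (edgeR adjusted p = 0.236). Nefh, the heavy chain, had 89, 0 and 31 counts against 8, 65 and 9, so its libraries overlapped fully (log2 fold change 0.49 ± 1.74, edgeR adjusted p = 0.87). The 3 chains of one filament were thus detected very unevenly in these libraries. In the GENCODE vM30 annotation Nefl (chr14:68321312-68326544, plus strand) lies inside the span of Nefm (chr14:68320039-68362295, minus strand), and 1108 exonic bases are common to both. They are 32.8% of the exonic bases of Nefl and 19.2% of those of Nefm, and reads there can be lost or shared between the genes, so both counts are uncertain.

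Tubb3 encodes a beta tubulin found mainly in neurons (chr8:124138163-124148754, plus strand). It stood at 50.5, 55.8 and 40.9 CPM in TOM positive libraries and 49.6, 26.6 and 12.3 CPM in TOM negative ones. TOM negative replicate 1 lay within the TOM positive range, and the difference did not pass (log2 fold change 0.73 ± 0.47, edgeR adjusted p = 0.315). Map2 encodes a protein that binds dendritic microtubules (chr1:66214432-66481742, plus strand). Its level was 142, 48.9 and 61.8 CPM against 10.6, 9.68 and 29.98 CPM, so the groups did not overlap, with TOM positive replicate 1 far above the rest. That is 5.02-fold (log2 fold change 2.33 ± 0.59, edgeR adjusted p = 0.0277). The call was lost without TOM positive replicate 1 (log2 fold change 1.72, adjusted p = 0.0799), TOM negative replicate 1 (0.0988) or TOM negative replicate 2 (0.107), and without TOM negative replicate 3 the log2 fold change was 3.03. Map2 shares 124 exonic bases, 0.754% of its exons, with Gm10558.

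Stmn2, a stathmin of growing axons (chr3:8574420-8626666, plus strand), stood at 34.5, 31.6 and 22.7 CPM in TOM positive libraries and 0.252, 9.83 and 3.03 CPM in TOM negative ones. The groups did not overlap, but the TOM negative libraries spread over 39.1-fold, and the difference did not pass in edgeR (log2 fold change 2.76 ± 1.03, adjusted p = 0.0953). It passed in DESeq2 (adjusted p = 0.00957) and in limma voom (adjusted p = 0.0344). Stmn3, its relative (chr2:180948252-180956293, minus strand), stood at 66.0, 49.8 and 49.1 CPM against 53.3, 33.2 and 21.6 CPM. The libraries overlapped through TOM negative replicate 1, and the log2 fold change was 0.61 ± 0.35 (edgeR adjusted p = 0.26).

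Gap43 (chr16:42068805-42161014, minus strand) had the smallest adjusted p of the 10 genes. It stood at 62.5, 80.4 and 69.4 CPM in TOM positive libraries and 22.5, 9.39 and 4.54 CPM in TOM negative ones, with no overlap. The log2 fold change was 2.54 ± 0.56, a 5.82-fold difference (edgeR adjusted p = 0.0164). The call was lost without TOM negative replicate 2 (adjusted p = 0.0785), and the log2 fold change reached 3.34 without TOM negative replicate 1.

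Uchl1 encodes a ubiquitin hydrolase that is abundant in neurons (chr5:66833434-66844577, plus strand). It stood at 57.9, 50.1 and 50 CPM against 18.3, 29.7 and 12.2 CPM, without overlap, and its TOM positive libraries were the most alike of any of the 10 genes. The difference of 2.62-fold passed (log2 fold change 1.39 ± 0.35, edgeR adjusted p = 0.0277). The call was lost without any one of TOM positive replicate 1 (adjusted p = 0.0777), TOM positive replicate 3 (0.062), TOM negative replicate 1 (0.0876) and TOM negative replicate 3 (0.0583), and the log2 fold change without 1 library ran from 1.11 to 1.78. Uchl1 shares 295 exonic bases with the antisense gene Uchl1os, which had 0 counts in all 6 of these libraries. Thy1, a surface protein held by a GPI anchor and made by neurons and T cells (chr9:43954681-43959876, plus strand), went the other way at a low level, with 1.33, 1.19 and 1.83 CPM against 2.92, 2.86 and 1.97 CPM. Its groups did not overlap, but the difference did not pass (log2 fold change -0.83 ± 0.74, edgeR adjusted p = 0.472). The 6 T cell markers summed to 8.92 to 24.2 CPM in TOM positive and 30.5 to 43.4 CPM in TOM negative libraries, and Cd3e, Cd3g, Cd3d and Cd8a were at 0 in every TOM positive library. Their part in the level of Thy1 was not tested.

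**Figure D2:**
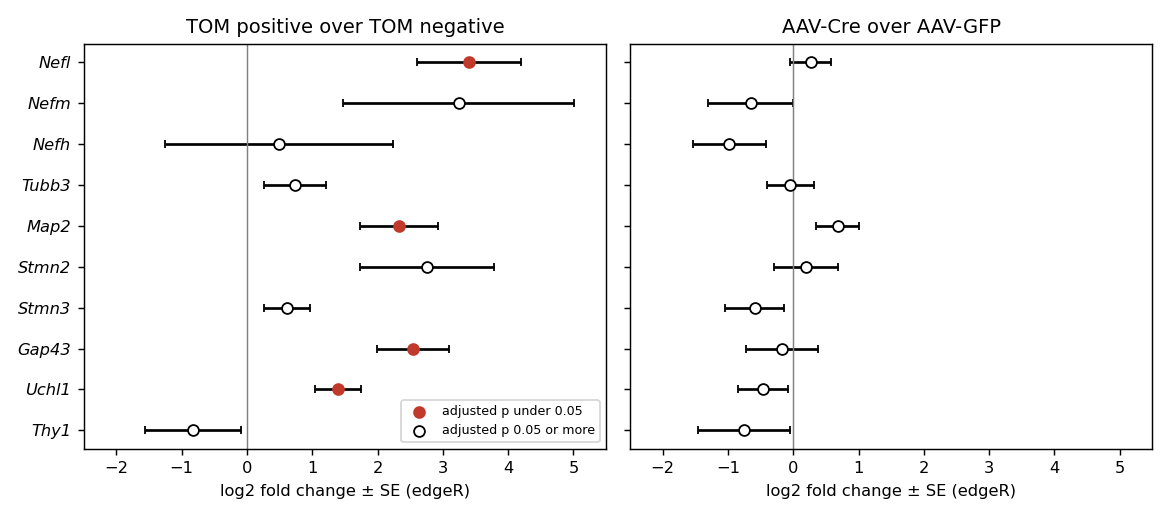
Log2 fold change ± SE of each gene for TOM positive over TOM negative cells and for AAV-Cre over AAV-GFP cells, filled where the edgeR adjusted p was under 0.05. Nefl, Map2, Gap43 and Uchl1 passed in the first comparison, and none of the 10 passed in the second.

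The TOM negative libraries did not rank alike across the 10 genes. Replicate 1 was the highest of the 3 for 4 genes (Gap43, Stmn3, Thy1 and Tubb3), replicate 2 for another 4 (Nefh, Nefm, Stmn2 and Uchl1) and replicate 3 for 2 (Map2 and Nefl). Replicate 1 had the highest Gap43, at 22.5 CPM, and the lowest Stmn2, at 0.252 CPM, which is 5 counts. The coefficient of variation in TOM negative libraries was 76.6% for Gap43, 99.5% for Nefl and 113% for Stmn2, against 12.8%, 10.3% and 20.8% in TOM positive ones. All 10 genes together made up 0.0362% to 0.0498% of the counts in TOM positive libraries and 0.00873% to 0.0141% in TOM negative ones.

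**Figure D3:**
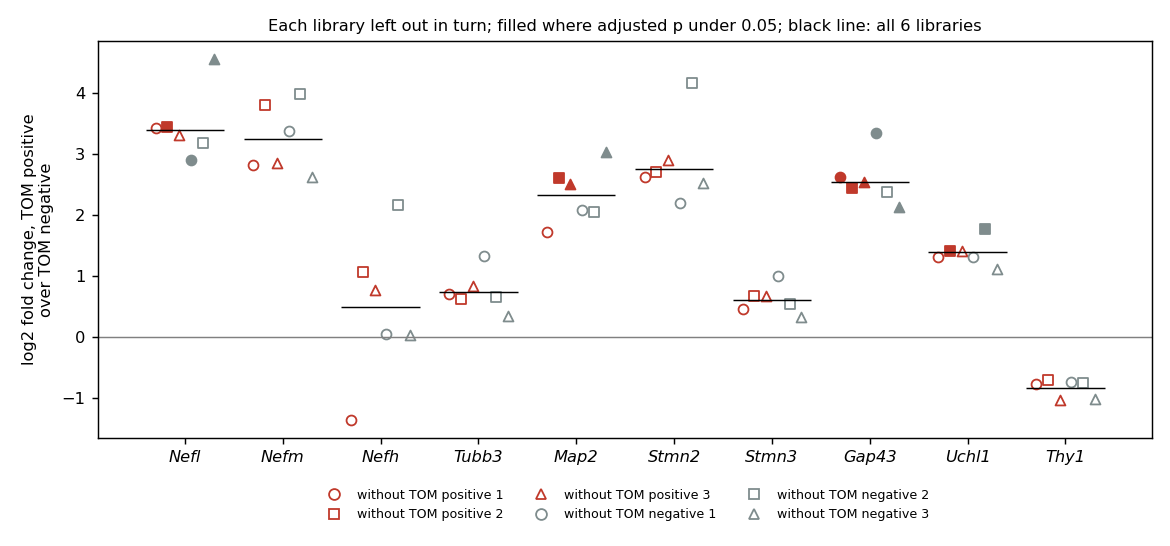
Log2 fold change of each gene, TOM positive over TOM negative, with each library left out in turn, filled where the edgeR adjusted p was under 0.05, and a black line at the value over all 6 libraries. Gap43 passed in 5 of the 6 fits, Nefl and Map2 in 3, Uchl1 in 2 and the other genes in none, and Nefh is the gene whose sign changed.

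The counts were next set against the summed counts of the 18 pan-neuronal markers in the same library. On that scale the 10 genes together held 535, 436 and 447 counts per 1000 marker counts in TOM positive libraries and 666, 504 and 433 in TOM negative ones. The groups overlapped (473 ± 54.4 against 534 ± 119, SD, n = 3 each, exact two-sided permutation p = 0.7). This sum adds genes with higher and with lower ratios, so it does not speak for single genes. The part of neuronal content in their levels was not tested. Single genes differed in direction. Nefl was higher without overlap, at 36.2 ± 5.57 against 12.2 ± 13.1 per 1000. Stmn3 was lower without overlap, at 68.9 ± 7.98 against 152 ± 63.2, and so was Thy1, at 1.84 ± 0.52 against 11 ± 1.51. For each of these 3 genes the exact permutation p was 0.1, the smallest that 3 libraries against 3 allow, and 0.33 when adjusted over the 10 genes, so no such difference could pass. The share of all genes without overlap was not computed on this scale, and in CPM it was 46.4%. Gap43 (89.4 ± 14.3 against 51.0 ± 38.4), Map2 (104 ± 56.1 against 74.7 ± 57.8) and Uchl1 (66.2 ± 2.52 against 84.0 ± 30.8) overlapped. The marker sum is itself uneven, since Rab3a alone made up 12.3% to 31.9% of it.

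**Figure D4:**
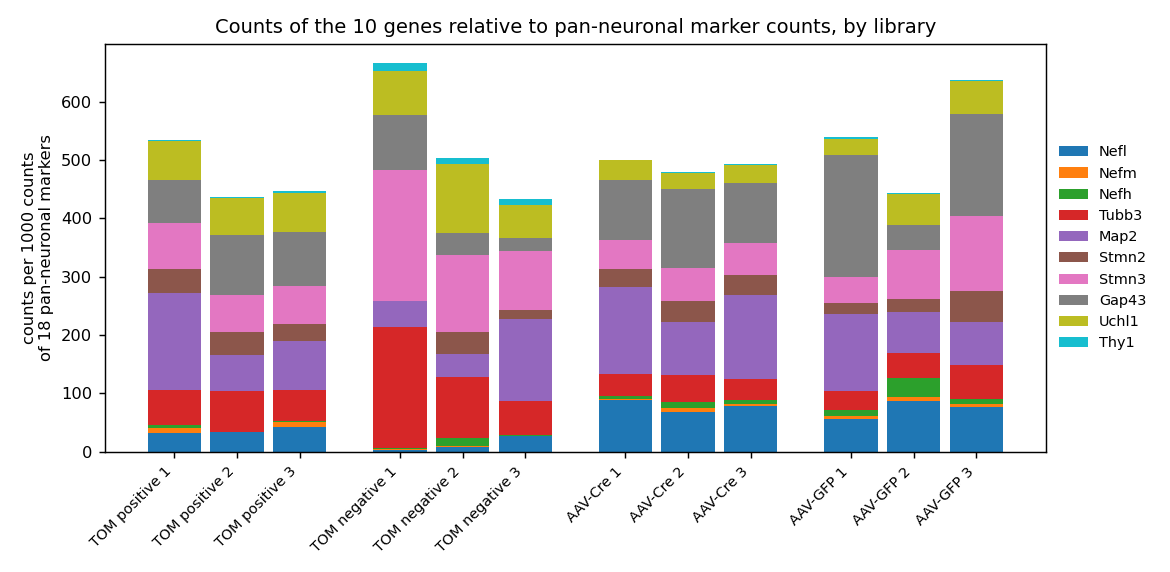
Counts of the 10 genes per 1000 counts of 18 pan-neuronal markers, stacked by gene, 1 bar per library. The totals run from 436 to 535 in TOM positive, 433 to 666 in TOM negative, 480 to 501 in AAV-Cre and 444 to 638 in AAV-GFP libraries, so the groups of each pair overlap.

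The second comparison asked what differed in PVH cells after AAV-Cre. None of the 10 genes passed the test in edgeR, DESeq2 or limma voom, and 0 of them had an unadjusted edgeR p under 0.05, the smallest being that of Map2 (0.0778). Over the 15408 genes tested, 2.6% passed in edgeR, 0.63% higher and 1.97% lower, and 18.8% had an unadjusted p under 0.05. The log2 fold change was positive for 3 genes and negative for 7, with a median of -0.32 against -0.16 over all genes tested. The SEs ran from 0.32 to 0.71 on the log2 scale, so a p that misses the threshold does not show that the groups were alike.

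Nefl stood at 297, 206 and 218 CPM after AAV-Cre, and the AAV-GFP libraries had 133, 223 and 243 CPM. The groups overlapped (log2 fold change 0.27 ± 0.32, edgeR adjusted p = 0.719). Nefm had 67, 299 and 120 counts against 257, 241 and 293, where AAV-Cre replicate 2 reached the AAV-GFP level and the other two did not (log2 fold change -0.65 ± 0.65, edgeR adjusted p = 0.662). The ratio of Nefl to Nefm, each per kilobase of exon not shared with another gene, was 146, 20.9 and 54.3 after AAV-Cre, while the AAV-GFP libraries gave 20.5, 26.3 and 24.3, so it was uneven within the AAV-Cre group alone. Nefh stood at 17.0, 31.7 and 20.4 CPM against 23.8, 85.6 and 27.02 CPM, with AAV-GFP replicate 2 far above the other 5 libraries (log2 fold change -0.98 ± 0.56, edgeR adjusted p = 0.403).

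Map2 had the highest fold change of the 10, with 497, 272 and 399 CPM after AAV-Cre against 315, 179 and 236 CPM after AAV-GFP, still overlapping (log2 fold change 0.68 ± 0.33, edgeR adjusted p = 0.327). Tubb3 stood at 127, 139 and 101 CPM against 78.4, 112 and 187 CPM, and its log2 fold change of -0.04 ± 0.36 changed sign with the scaling (0.14 with unscaled library totals). Thy1 alone did not overlap between the groups, at 3.99, 4.55 and 2.61 CPM against 4.71, 6.01 and 8.16 CPM, where 28.5% of all genes tested did not overlap (9.85% higher and 18.6% lower). Its log2 fold change was -0.76 ± 0.71 (edgeR adjusted p = 0.632). T cell markers summed to 31.4 to 35.0 CPM after AAV-Cre and 17.8 to 53.7 CPM after AAV-GFP, and their part in this was not tested.

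The growth genes varied mostly within the AAV-GFP group. Gap43 stood at 344, 405 and 285 CPM after AAV-Cre and at 497, 109 and 558 CPM after AAV-GFP. Replicate 2 of AAV-GFP lay below all other libraries and replicates 1 and 3 above them, and the log2 fold change was -0.17 ± 0.55 (edgeR adjusted p = 0.914), turning to 0.09 without AAV-GFP replicate 1 and 0.27 without replicate 3. Stmn3 stood at 167, 171 and 152 CPM against 107, 220 and 411 CPM (log2 fold change -0.59 ± 0.46, edgeR adjusted p = 0.547). Stmn2 stood at 106, 109 and 95.6 CPM against 45.04, 58.4 and 167 CPM (log2 fold change 0.20 ± 0.49, edgeR adjusted p = 0.877). In both stathmins the AAV-GFP range enclosed the whole AAV-Cre range. Uchl1 behaved likewise, at 110, 83.2 and 86.1 CPM against 68.4, 137 and 181 CPM (log2 fold change -0.46 ± 0.38, edgeR adjusted p = 0.577). AAV-GFP replicate 3 was the highest of its group for 8 of the 10 genes and replicate 1 the lowest for 8.

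The coefficient of variation was 5.87% for Stmn3, 6.97% for Stmn2 and 17.4% for Gap43 after AAV-Cre, against 62.4%, 74.3% and 62.7% after AAV-GFP. Nefm went the other way, with 76.8% against 21.5%. The ratio of Stmn2 to Stmn3 per kilobase was 0.129, 0.13 and 0.127 in the 3 AAV-Cre libraries and 0.085, 0.0539 and 0.0825 in the AAV-GFP ones, so these 2 groups did not overlap on that ratio, which was picked after its values were seen and carries no test. In TOM positive libraries it was 0.106, 0.129 and 0.0937, and in TOM negative ones 0.000958, 0.06 and 0.0284, again without overlap. Relative to pan-neuronal markers, the 10 genes summed to 501, 480 and 493 per 1000 after AAV-Cre against 539, 444 and 638, again overlapping (491 ± 10.6 against 540 ± 96.8, SD, n = 3 each, exact permutation p = 0.5). Thy1 was the only gene without overlap on that scale (1.22 ± 0.287 against 2.29 ± 0.292 per 1000). The share of all genes without overlap there was not computed, and in CPM it was 28.5%. Pan-neuronal markers summed to 2770 to 3340 CPM after AAV-Cre against 2380 to 3200, while ependymal and tanycyte markers summed to 20.1 to 27.2 against 771 to 1490 CPM and oligodendrocyte markers to 48900 to 62800 against 14800 to 54000 CPM.

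Levels between genes were compared as CPM per kilobase of exon not shared with another gene. In TOM positive libraries the order of the group means was Stmn3 (48.4), Gap43 (46.5), Uchl1 (39.4), Tubb3 (26.3), Nefl (12.6), Stmn2 (5.28), Map2 (5.16), Nefm (0.87), Thy1 (0.485) and Nefh (0.467). Stmn3, Gap43 and Uchl1 overlapped with their neighbours in this order, as did Stmn2 with Map2 and the last 3 genes among themselves. In TOM negative libraries Stmn3 (31.7), Tubb3 (15.8) and Uchl1 (15.0) led, followed by Gap43 (7.98), and only Gap43 and the next gene, Nefl (1.19), did not overlap as neighbours. After AAV-Cre the leading genes were Gap43 (226), Stmn3 (144) and Nefl (106), each apart from the next, and after AAV-GFP Gap43 (255) and Stmn3 (217) led with overlap. Nefm and Thy1 were the lowest 2 in both AAV groups, at 2.33 and 1.24 after AAV-Cre, and 3.66 and 2.10 in the GFP group. The mice of the TOM and AAV groups differ in age, tissue, genotype and sort and their tables were normalized separately, so these values stand side by side and were not compared.

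The other genes of the same machinery were followed with a list of 118 genes in 8 groups. In TOM positive against TOM negative cells 110 were tested, of which 41 were higher, 17 lower and 52 did not pass, with a median log2 fold change of 0.73. Over all 15228 genes tested, 10.4% were higher and 13.4% lower, and no group of the list was tested against these shares. With unscaled library totals, which moved the median of all genes by 0.26, the counts were 50 higher and 11 lower. Without TOM negative replicate 2, 28 of the 112 then tested passed in all, instead of 58 of 110. Of the 58, 28 passed in every one of the 6 fits that left out a library. All 10 oligodendrocyte markers were higher in the same comparison, and 9 of the 10 microglial markers were lower, and their part in these counts was not tested.

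Proteins that bind microtubules and motors were mostly higher. Of 24 microtubule-binding genes 17 were higher and 1 lower, Map1s, named after its values were seen. Map1b, a microtubule-associated protein of growing axons, was the most significant, at 350 ± 54.4 against 27.1 ± 5.95 CPM (SD, n = 3; log2 fold change 3.69 ± 0.23, edgeR adjusted p = 0.000145), followed by Map7, which recruits kinesin-1 to microtubules (log2 fold change 2.34 ± 0.22, edgeR adjusted p = 0.000606). Of 16 motor genes 10 were higher and none lower, led by the kinesin-1 heavy chains Kif5c (log2 fold change 3.34 ± 0.41, edgeR adjusted p = 0.00199) and Kif5b (2.40 ± 0.33, adjusted p = 0.00315). Dcx, which encodes the doublecortin of young neurons, was picked after its values were seen. It had 50, 184 and 80 counts in TOM positive libraries against 0, 0 and 0, at least 82.7-fold higher against a floor of 3 counts over the group (edgeR adjusted p = 0.0102). Tubulins went the other way, with 8 of 14 lower and 1 higher, Tubb4a, also named after its values were seen. With unscaled library totals 4 were lower. Tuba1b (147 ± 11.9 against 407 ± 51.4 CPM, log2 fold change -1.47 ± 0.16, edgeR adjusted p = 0.0011) and Tubb2a (270 ± 11.5 against 558 ± 65.6 CPM, log2 fold change -1.05 ± 0.14, edgeR adjusted p = 0.00281) fell, both made by many cell types.

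The relatives of single members went both ways, as did all genes tested (10.4% higher and 13.4% lower). Among 7 stathmin and CRMP genes 4 were higher and none lower. Dpysl2, which carries tubulin to growing axons, was higher (log2 fold change 1.23 ± 0.15, edgeR adjusted p = 0.0017), and so was Stmn4 (0.98 ± 0.19, adjusted p = 0.0118), whose call was lost without TOM negative replicate 2 (adjusted p = 0.052). Among 22 growth cone genes tested 4 were higher and 3 lower, with 8 higher and 2 lower on unscaled totals. Basp1, a membrane protein of growth cones like GAP43, was lower, at 83.1 ± 13.1 against 273 ± 2.25 CPM (log2 fold change -1.72 ± 0.17, edgeR adjusted p = 0.000776), while Gpm6b, a membrane glycoprotein shared by neurons and oligodendrocytes, was higher (1.70 ± 0.15, adjusted p = 0.000464). Gap43 and Basp1 thus moved in opposite directions.

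Among 8 other filament genes tested 2 were higher and 2 lower. For this group and the next ones, the shares over all genes tested were 10.4% higher and 13.4% lower. Dst, which links filaments to microtubules, was higher (log2 fold change 2.36 ± 0.37, edgeR adjusted p = 0.0051). Nes, the nestin of progenitor and vascular cells, was lower, with 0 counts in all TOM positive libraries and 20, 29 and 111 in TOM negative ones, at least 67.5-fold lower against the same floor (edgeR adjusted p = 0.0162), and this call was lost without TOM negative replicate 2 or 3. Endothelial markers summed to 0.17 to 63.6 CPM in TOM positive and 383 to 522 CPM in TOM negative libraries, and their part in this was not tested. Of 9 ubiquitin genes tested 1 was higher and 1 lower, with a median log2 fold change of -0.337. The higher one was Uchl5, a proteasome-bound relative of Uchl1 (log2 fold change 1.36 ± 0.24, edgeR adjusted p = 0.00793). With unscaled totals 3 were higher and 1 lower. Of 10 GPI-anchored surface genes tested 2 were higher and 2 lower, among them Cntn1, a neuronal and glial adhesion protein (log2 fold change 2.12 ± 0.22, edgeR adjusted p = 0.000958), and Ly6e, which belongs to the Ly6 family (-4.67 ± 0.30, adjusted p = 0.000169).

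**Figure D5:**
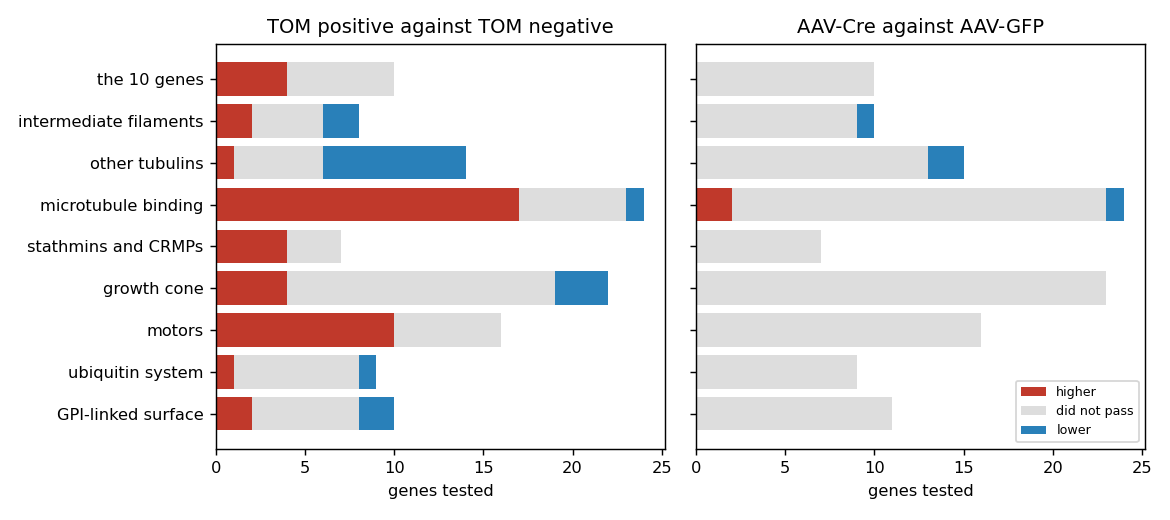
Number of genes tested in each of the 8 groups of the list and among the 10 genes that were higher, lower or did not pass (edgeR adjusted p under 0.05), for both comparisons. In TOM positive cells 17 of 24 microtubule-binding genes and 10 of 16 motor genes were higher and 8 of 14 tubulins lower, while in AAV-Cre cells 6 of 115 genes passed. Over all genes tested, 10.4% were higher and 13.4% lower in the first comparison, and 2.6% passed in the second.

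After AAV-Cre, where 2.6% of all genes tested passed in edgeR, 115 of the listed genes were tested. Of these 2 were higher, 4 lower and 109 did not pass in edgeR. Both higher genes come from the microtubule-binding group, which was chosen by that function, so their shared role is no result. Ttll7, which adds glutamate chains to tubulin, stood at 163 ± 25.4 against 47.2 ± 7.42 CPM (log2 fold change 1.79 ± 0.27, edgeR adjusted p = 0.0261), and Tppp, a tubulin-bundling protein of oligodendrocytes, at 782 ± 145 against 190 ± 47.4 CPM (2.04 ± 0.31, adjusted p = 0.0261). The lower genes were Vim, which encodes vimentin (-2.01 ± 0.36, adjusted p = 0.038), the tubulins Tubb4b (-1.74 ± 0.29, adjusted p = 0.0308) and Tuba8, and Tppp3 (-1.72 ± 0.30, adjusted p = 0.035), the last named after its values were seen. Tuba8 had 0 counts in all AAV-Cre libraries against 84, 34 and 46, at least 52.3-fold lower (edgeR adjusted p = 0.05 as rounded, just under the threshold). With 1 library left out, Ttll7 and Tppp each passed in 1 of 6 fits and the other 4 in none. The ependymal and tanycyte markers given above were lower after AAV-Cre, as Vim was. Endothelial markers were lower too, at 0.0623 to 35 CPM against 237 to 434 CPM. The sum of the mural and fibroblast markers was also lower, at 14.9 to 36.7 against 69.6 to 86 CPM. Its genes were mixed, since of the 6 tested 3 had a positive and 3 a negative log2 fold change. The sum of the oligodendrocyte markers, given above, overlapped between the groups and had a higher median after AAV-Cre (57700 against 37300 CPM), in the direction of Tppp. By gene, 8 of these 10 markers were higher without overlap, where 9.85% of all genes tested were. In edgeR 3 of the 10 passed as higher and 0 as lower, with a median log2 fold change of 1.42. The part of these cell types in the calls was not tested. Among the stathmin and CRMP, growth cone, motor, ubiquitin and GPI-anchored groups 0 genes passed in edgeR. Of the 7, 23, 16, 9 and 11 genes tested in these groups, 1, 8, 2, 2 and 1 had an unadjusted edgeR p under 0.05. Over all genes tested 18.8% did. DESeq2 called 1, 5, 0, 1 and 1 genes of these groups, and limma voom called 0, 1, 0, 0 and 0. The nearest were Sncg, the gamma synuclein gene (log2 fold change -3.73 ± 0.91, edgeR adjusted p = 0.0668), Otub1, a deubiquitinase (-1.28 ± 0.32, 0.0741), Fscn1, an actin-bundling protein (1.24 ± 0.33, 0.0891) and Stmn4 (1.59 ± 0.45, 0.104). The kinesin genes Kif3c (1.31 ± 0.43, adjusted p = 0.16) and Kif5a (0.98 ± 0.41, 0.252) had positive values, like 14 of the 16 motor genes. Over all 15408 genes tested, 6599 values were positive and 8809 negative.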

How the data were processed

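The authors deposited raw counts per gene for 12 libraries, as whole numbers with no normalization. FastQC, Trim Galore, STAR, featureCounts and the mm10 build are named in the submitters' processing notes. For the AAV libraries, per the file headers, read pairs were counted with featureCounts 2.0.1 on the GENCODE vM30 annotation, without strand and without pairs that map to several places or genes. How the TOM table was counted is not given in the sources used here. Genes on opposite strands of one locus can therefore not be told apart by strand. Coordinates are those of vM30, which belongs to a later assembly than mm10, and promoter windows are from RefSeq on GRCm38.p6. They were not converted. Each of the 6 single-library AAV files equalled its column in the joint table.

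The 6 libraries of a comparison were fitted alone, in R 4.3.3 with edgeR 4.0.16 (TMM scaling, filterByExpr with its minimum count of 10, quasi-likelihood test, two-sided). The Benjamini-Hochberg adjustment covered all genes tested, and the threshold was 0.05. CPM used TMM-scaled totals, values are mean ± SD over 3 libraries, and the SE was derived from the F statistic. Alternatives were RLE size factors, unscaled totals, no count filter, a replicate block, DESeq2 1.42.0, voom with quality weights (limma 3.58.1), removal of mitochondrially encoded genes and leaving out each library. Leaving out each library was also applied to the ratio to pan-neuronal markers, a step chosen after seeing the data. Steps were tested on simulated data.

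The 10 genes, the list of 118 related genes, the marker lists and the rules were chosen with earlier results of these data known. Named genes are the 10 members, the 2 genes of each group of the list with the smallest p in each comparison, and the 5 genes per table nearest to the members' mean profile. 1 gene that the rule takes is not reported here. Any gene named beside these is marked as picked after its values were seen. No pair of libraries of a group was alike within sampling noise (chi-square per degree of freedom of 47.7 or more).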

Additional observations from a re-analysis of the deposited data

How the results depend on the processing

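The labels do not say whether replicate numbers mark paired libraries. Correlations of same-numbered deviations from the group means ran from -0.0313 to 0.0246 in the TOM table and from -0.0702 to -0.0647 in the AAV table. With 3 libraries per group such values cannot settle whether libraries were paired. With a replicate block, edgeR called 1987 genes instead of 3635 in the TOM comparison, 2 of the 10 genes instead of 4 (Nefl and Gap43, while Map2 had an adjusted p of 0.0554 and Uchl1 of 0.0546) and 37 listed genes instead of 58. In the AAV comparison the block gave 0 genes instead of 400 and 0 listed genes instead of 6, where 2896 genes had an unadjusted p under 0.05 without the block and DESeq2 called 1531 genes and 17 listed ones. No count filter gave 712 genes there. With 1 library left out, the TOM counts ran from 1511 to 3547 genes, 1 to 4 of the 10 genes and 28 to 49 listed genes, with the lowest of the first and last without TOM negative replicate 2. The AAV counts ran from 0 to 296 genes and from 0 to 3 listed genes, and none of the 10 genes passed in any of the 14 AAV fits. Relative to pan-neuronal markers, the number of the 10 genes without overlap was 3 in the TOM pair (4 to 6 with 1 library left out) and 1 in the AAV pair (1 to 4), as fewer libraries overlap less often. The share of all genes without overlap was not computed on that scale. In CPM it was 46.4% in the TOM pair and 28.5% in the AAV pair, so these numbers mark nothing particular to the 10 genes.

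The sign changed for Nefh in the TOM comparison (-0.76 in voom, -1.35 to 2.17 with 1 library left out). In the AAV comparison it changed for Tubb3 (0.0068 with RLE, 0.14 with unscaled totals, 0.0426 with the block, 0.00684 in DESeq2, -0.24 to 0.44 with 1 library left out), Gap43 (0.0787 with the block, -0.62 to 0.27 left out), Stmn2 (-0.0737 to 1.09 left out) and Stmn3 (-0.90 to 0.0815 left out). None of these passed a test, and the cause was not tested. In the TOM comparison Nefl, Map2, Gap43 and Uchl1 kept a positive log2 fold change in all settings run. There they passed with RLE, unscaled totals, no filter, DESeq2, voom and without mitochondrially encoded genes. Unscaled totals moved the median log2 fold change of all genes by 0.26 in the TOM and 0.16 in the AAV comparison. Low counts of Nefm and Thy1 in both tables and of Nefh in the TOM table limit what could be shown for them.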

Other observations

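The genes whose pattern over 6 libraries was nearest to the mean profile of the 10 genes are given as a description, by the root-mean-square difference of log2 CPM centred per gene, among genes whose mean reached 10 CPM. The TOM table gave Zhx1 (0.10), Syne1 (0.17), Kctd3 (0.24), Ppm1k (0.25) and Ptprk (0.26) among 8909 candidates. Uchl1 was the nearest of the 10 to their own mean, at 0.38, and Nefh the farthest, at 1.77. Syne1 encodes a giant protein that ties the nucleus to the cytoskeleton, and Ptprk a receptor phosphatase. In the AAV table the nearest were Slc35b1 (0.05), Lcmt1 (0.07), Sncb (0.08), Alg14 (0.09) and Atp6v0c (0.09) among 9690 candidates. Sncb encodes beta synuclein, a protein of nerve terminals, and Atp6v0c a subunit of the proton pump that acidifies organelles in many cell types. Tubb3 was the nearest of the 10 there, at 0.16, and Gap43 the farthest, at 0.76.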
